A study of Mus musculus with 11 samples.

Results

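The genes described here lie on mouse chromosome 16, the chromosome that carries Robo2, and most of them were picked because their signal differed between Robo2 homozygous and wild-type embryonic kidneys. The 10 genes are Cblb, Alcam, Senp7, Tmem45a and Cadm2 on the proximal side of Robo2 and Nrip1, Usp25, Chodl, N6amt1 and Map3k7cl on the distal side, out of 18193 genes with a named probe set on the array. All probe sets of a gene were taken. The platform annotation used here lists 24 probe sets for 9 of the genes and lists no probe set under Cadm2, a neuronal adhesion molecule, so Cadm2 has no value below. Cadm2 and Usp25 were picked by position. The other genes were picked for a small p by genotype, so their genotype differences are given as a description and are not read as a test.

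The arrays measured kidneys of embryonic day 17 mice and fall into 5 groups by title and genotype label. The E17R2 titles hold 3 Robo2 homozygous arrays (replicates 2, 8 and 9) and 3 wild-type arrays (replicates 1, 3 and 7). The R2E17 titles hold 1 homozygous and 1 wild-type array, called the R2E17 pair. The R2NB titles hold 3 homozygous arrays (replicates 3, 4 and 5), and the sources used here do not say what NB stands for. The labels also give neither the kind of Robo2 change, nor the mouse strain, nor whether replicates came from separate animals, so p-values measure only the spread between these samples. Some free-text labels name human brain tissue, against the organism, source and tissue labels. Kidney markers had a median percentile of 84.0 to 94.8 on every array, and brain markers one of 27.9 to 46.7. Of 9 measured brain markers, Mbp, Syt1, Neurod2 and Snap25 reached percentiles of 82.0, 78.7, 72.1 and 69.6 on some array, while Gad1, Gad2 and Neurod6 stayed at or under 28.01, 17.4 and 1.71. Snap25 and Syt1 were highest on R2NB replicate 5.

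Robo2 encodes a receptor for Slit, a secreted guidance cue. During kidney development this signal keeps the ureteric bud, the origin of the collecting system, to a single site of outgrowth. A targeted allele is inherited together with the stretch of chromosome around it. Where the allele was made in cells of one mouse strain and kept on another, groups sorted by genotype at the allele can also differ in the linked sequence. A probe is designed on one version of a sequence, and a base difference under it can change its signal without a change in transcript level. Probe sets that read other parts of the same transcript would then not move with it. No strain variant was examined here, so whether linked sequence differences contribute to any value below was not tested.

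Values are log2 of the deposited RMA intensity. The E17R2 arrays had medians of 23.4 to 24.6 intensity units, and the R2E17 and R2NB arrays had medians of 47.1 to 53.4. The median probe set lay 1.11 log2 units higher in the R2E17 pair than in the E17R2 arrays, so levels are compared only within one of these sets. All 45037 probe sets other than controls were tested in limma with Benjamini-Hochberg adjustment. In the E17R2 comparison 0 of them passed an adjusted p of 0.05 and 2257 had an unadjusted p under 0.05 (5.01%). The 3 homozygous and 3 wild-type arrays did not overlap for 10.6% of all probe sets.

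Senp7 and Tmem45a lie close together, 36 and 33 places proximal to Robo2 in the order of measured genes, and a probe set of each was higher in homozygous kidneys in both title series. The RefSeq sequences around their starts (build GRCm38.p6, 250 bases before to 50 after the start) are shown because these members differed in the same direction. Senp7 has 3 listed starts, and the outermost one and the furthest downstream one are given. Capitals mark CCAAT on either strand. TATAAA and GGGCGG were searched on both strands as well and are absent from these 3 windows.
Senp7, chr16:56057280-56057579, plus strand: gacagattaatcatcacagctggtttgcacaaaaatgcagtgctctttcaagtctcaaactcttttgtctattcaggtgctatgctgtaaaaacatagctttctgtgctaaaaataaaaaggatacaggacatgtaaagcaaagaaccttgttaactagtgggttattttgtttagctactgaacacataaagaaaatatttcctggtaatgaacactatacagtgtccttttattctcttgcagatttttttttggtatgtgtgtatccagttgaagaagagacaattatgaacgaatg
Senp7, chr16:56075230-56075529, plus strand: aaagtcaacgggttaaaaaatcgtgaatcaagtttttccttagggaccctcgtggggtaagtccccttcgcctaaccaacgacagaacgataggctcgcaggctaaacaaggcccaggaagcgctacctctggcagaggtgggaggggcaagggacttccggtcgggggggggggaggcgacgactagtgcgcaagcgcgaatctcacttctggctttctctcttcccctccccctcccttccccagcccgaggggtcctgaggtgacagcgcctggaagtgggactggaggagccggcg
Tmem45a, chr16:56886114-56886413, minus strand: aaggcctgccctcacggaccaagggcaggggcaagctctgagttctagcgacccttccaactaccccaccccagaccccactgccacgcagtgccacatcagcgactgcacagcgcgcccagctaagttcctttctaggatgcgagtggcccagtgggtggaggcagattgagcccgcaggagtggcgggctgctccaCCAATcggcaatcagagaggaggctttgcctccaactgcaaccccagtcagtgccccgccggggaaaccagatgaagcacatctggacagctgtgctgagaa
The outermost Senp7 window holds 1 CpG and the downstream one 19, against a median of 7 over 32851 promoter windows of 300 bases. The Tmem45a window holds 12 CpGs and 1 CCAAT. Over all windows 37.4% hold CCAAT, 13.6% TATAAA and 35.7% GGGCGG. The array data do not tell which Senp7 start was used.

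Senp7, a protease that trims chains of the small modifier SUMO, was read by 3 probe sets. Probe set 1436860_at had log2 intensities of 7.87, 7.86 and 8.02 in the E17R2 homozygous arrays, against 7.21, 7.54 and 7.44 in the E17R2 wild-type arrays. The groups did not overlap. The difference was 0.52 ± 0.12 on the log2 scale (SE), a fold of 1.43, and it ran from 0.43 to 0.59 with 1 array left out. In whole kidneys, more cells with a transcript and more transcript per cell cannot be told apart. In the R2E17 pair the same probe set read 8.86 in the homozygous and 7.48 in the wild-type array, a difference of 1.38.

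The R2NB arrays, which carry the same genotype label and were not part of the genotype contrast, read 8.72, 8.64 and 8.63 for this probe set. All 3 lay just below the homozygous array of the pair and well above its wild-type array. That wild-type array stood apart from the other 10 arrays in RNA integrity, with a 3' over 5' excess of 0.70 log2 units for Gapdh (at most 0.22 elsewhere) and 1.12 for Actb (at most 0.75 elsewhere). Its part in the pair values was not tested. The R2NB mean was 0.20 ± 0.14 (SE) below that homozygous array (-0.20), with a limma adjusted p of 1.0 and an unadjusted p of 0.198. The difference between the R2E17 and E17R2 genotype effects was 0.87 ± 0.20 (SE), which had an adjusted p of 0.190 in limma and 0.00225 unadjusted.

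The other Senp7 probe sets did not move with it in the E17R2 arrays. Probe set 1438413_at had 6.81, 6.72 and 6.78 in homozygous against 6.79, 6.92 and 6.30 in wild-type E17R2 arrays, a difference of 0.10 ± 0.16 (SE), and it was lower in the homozygous array of the pair (7.58 against 7.79). Without wild-type replicate 7 its E17R2 difference was -0.08. The dimmest Senp7 probe set, 1430974_a_at, differed by -0.29 ± 0.23 (SE) in the E17R2 arrays. In the pair it was higher in the homozygous array by 0.73 (5.25 against 4.52), the same direction as 1436860_at. Its R2NB values were 5.71, 5.38 and 5.25, on the side of the homozygous array. The 3 Senp7 differences therefore spanned 0.80 log2 units in the E17R2 arrays. Since Senp7 was picked by this contrast, its span is given as a description.

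The difference between 2 probe sets of a gene was also taken on each array, as the one with the smallest p minus the brightest other one. Probe set 1436860_at minus 1438413_at was 1.06, 1.14 and 1.24 in the E17R2 homozygous arrays, against 0.43, 0.61 and 1.14 in the wild-type arrays. Wild-type replicate 7 thus lay inside the homozygous range. The pair had 1.29 in the homozygous and -0.31 in the wild-type array, and the R2NB arrays had 1.27, 1.39 and 1.42.

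**Figure D1:**
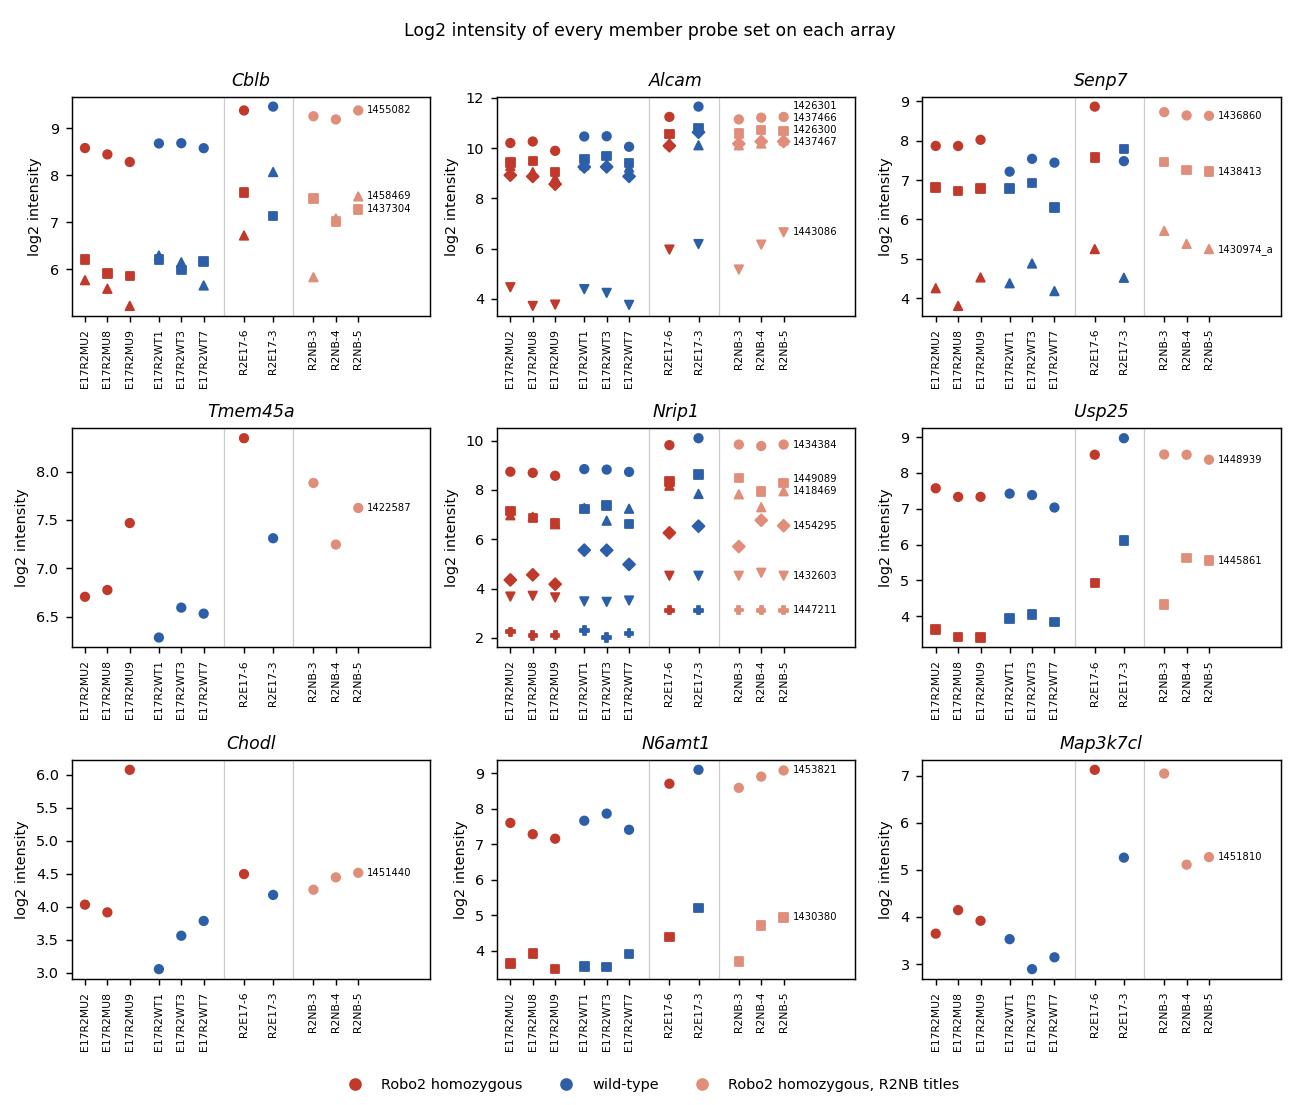
Log2 intensity (vertical axes) of every probe set of the 9 measured genes on each of 11 arrays (horizontal axes), with 1 point per array and a marker shape per probe set named at the right by its number; vertical lines separate the title series. Senp7 probe set 1436860_at sits at 7.86 to 8.02 in the E17R2 homozygous arrays and 7.21 to 7.54 in wild-type, and Chodl reaches 6.07 on 1 homozygous array.

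Tmem45a encodes a small membrane protein and was read by 1 probe set, 1422587_at. It had 6.71, 6.78 and 7.47 in the E17R2 homozygous arrays, against 6.29, 6.59 and 6.53 in wild-type. The groups did not overlap, but replicates 2 and 8 lay only just above the highest wild-type array. The log2 difference was 0.51 ± 0.21 (SE), and 0.27 without homozygous replicate 9. That array also stood apart in smooth muscle transcripts, where all 10 markers were higher than on any other E17R2 array. The summed intensity of that list was 4562 to 41210 in homozygous and 5512 to 5984 in wild-type E17R2 arrays. Its part in the Tmem45a value was not tested.

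In the R2E17 pair Tmem45a read 8.35 in the homozygous and 7.31 in the wild-type array, a difference of 1.03. This wild-type array is the one that stood apart in RNA integrity. Skeletal muscle markers summed to 8718 intensity units in the homozygous and 377 in the wild-type array of the pair. The part of either in the Tmem45a difference was not tested. The R2NB arrays read 7.88, 7.25 and 7.62, so 1 of them lay below the wild-type array of the pair. Their mean was 0.76 ± 0.32 (SE) below the homozygous array (-0.76), which had an adjusted p of 1.0 in limma and 0.0414 unadjusted. Of the 24 member probe sets this was the only one with an unadjusted p under 0.05 in that comparison, against 3.14% of all probe sets, and 0 of the 24 passed after adjustment, against 0.0133% of all.

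A neighbour of Senp7 showed a split like that between 1436860_at and 1438413_at. Pcnp, which encodes a nuclear protein rich in PEST sequence, lies 38 places proximal to Robo2, close to Senp7, and was chosen after its values were seen. Its probe set 1452735_at had 8.93, 9.03 and 8.77 in homozygous against 8.52, 8.68 and 8.53 in wild-type E17R2 arrays, and 10.11 against 9.03 in the pair. The R2NB arrays read 10.28, 9.99 and 10.09, on the side of the homozygous array. The low array here is again the R2E17 wild-type array that stood apart in RNA integrity. The other Pcnp probe set, 1428314_at, listed under the same sequence accession, had overlapping groups, with differences of -0.08 ± 0.09 (SE) in the E17R2 arrays and -0.11 in the pair.

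Cblb encodes a ubiquitin ligase that restrains receptor signalling, and Alcam encodes an immunoglobulin-type adhesion molecule. They lie next to each other, 47 and 46 places proximal to Robo2. In the E17R2 arrays all 8 of their probe sets had lower means in homozygous than in wild-type kidneys, and all 8 overlapped between the groups. The bright Cblb probe set 1455082_at had 8.58, 8.44 and 8.28 in homozygous against 8.67, 8.68 and 8.57 in wild-type arrays. Its log2 difference was -0.21 ± 0.11 (SE). Summed kidney markers (8 of 10 measured) were also lower, at 5513, 5689 and 3368 intensity units in homozygous against 6169, 6390 and 6285 in wild-type arrays. Endothelial markers (6 of 6 measured) summed to 1977, 2125 and 1575 in homozygous against 2372, 2463 and 2302 in wild-type arrays. Neither list overlapped between the groups, and both were lowest in homozygous replicate 9. Their part in the Cblb and Alcam values was not tested.

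The dimmer Cblb probe set 1458469_at had 5.77, 5.59 and 5.22 in homozygous against 6.29, 6.15 and 5.66 in wild-type E17R2 arrays, a difference of -0.51 ± 0.20 (SE). Adrenal gland markers, of which 9 of 10 were measured, summed to 2540, 1027 and 811 intensity units in the homozygous arrays, against 5493, 4880 and 1132 in wild-type. The 6 arrays stood in the same order in this sum as in Cblb 1458469_at. The part of adrenal tissue in this value was not tested. In the R2E17 pair Cblb 1458469_at read 6.72 in the homozygous and 8.07 in the wild-type array. Cblb probe set 1437304_at went the other way in the pair (7.63 in homozygous against 7.13 in wild-type).

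The 5 Alcam probe sets differed by -0.34 to -0.14 in the E17R2 arrays, a span of 0.20, so they had 1 sign and like sizes. The one with the smallest p, 1437467_at, had 8.92, 8.87 and 8.56 in homozygous against 9.25, 9.25 and 8.87 in wild-type arrays (-0.34 ± 0.15, SE). Homozygous replicate 9 was the lowest array for the 4 bright Alcam probe sets, and without it their differences were -0.10, -0.11, -0.13 and -0.23. In the pair 4 of 5 Alcam probe sets were lower in the homozygous array, by up to 0.54 (-0.54). On a single array, 1437467_at minus 1426301_at was -1.28, -1.39 and -1.33 in homozygous against -1.21, -1.22 and -1.18 in wild-type E17R2 arrays, without overlap. The pair had -1.15 in the homozygous and -1.02 in the wild-type array, and the R2NB arrays had -0.97, -0.95 and -0.99. The same measure overlapped between the E17R2 groups for Cblb and N6amt1.

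Nrip1 encodes a corepressor of nuclear receptors and lies 5 places distal to Robo2. It was read by 6 probe sets, of which 5 had a negative and 1 a positive difference. Probe set 1454295_at had 4.35, 4.56 and 4.18 in the E17R2 homozygous arrays, against 5.56, 5.55 and 4.98 in wild-type. The groups did not overlap, and the log2 difference was -1.0 ± 0.18 (SE), a fold of 2.0 that ran from -1.20 to -0.91 on the log2 scale with 1 array left out. It was the largest difference of any member probe set below 0.

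The bright Nrip1 probe sets showed little of it. Probe set 1434384_at had 8.74, 8.69 and 8.58 in homozygous against 8.85, 8.83 and 8.73 in wild-type arrays, a difference of -0.13 ± 0.09 (SE), and 1449089_at and 1418469_at differed by -0.19 ± 0.22 and -0.26 ± 0.17. Probe set 1432603_at, listed under the same accession as 1454295_at, was higher in homozygous arrays by 0.19 ± 0.08 without overlap, at a log2 level of 3.67 in homozygous and 3.48 in wild-type arrays. It was dim, at percentiles of 33.1 to 37.3. It read the same value, 4.52, on both arrays of the pair, and 4.52, 4.64 and 4.52 on the R2NB arrays. Exact ties are common in that set. Taken pairwise, its arrays shared 4633 to 6876 identical values, against 112 to 236 for the E17R2 arrays. What produced the ties was not tested, so a tie is not read as an absent genotype difference. The span of the 6 differences was 1.19, which again describes a gene picked by this contrast.

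In the R2E17 pair the large Nrip1 difference was not seen. Probe set 1454295_at read 6.26 in the homozygous and 6.53 in the wild-type array, a difference of -0.27. The bright probe sets differed by -0.28 (1434384_at), -0.27 (1449089_at) and 0.33 (1418469_at). The difference between the pair and the E17R2 effect was 0.73 ± 0.55 (SE), with a limma adjusted p of 0.682. The R2NB arrays read 5.70, 6.77 and 6.55. Replicate 3 was below both arrays of the pair and the other two were above both.

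Usp25 encodes a deubiquitinating enzyme, lies next to Nrip1 and was picked by position. Its differences can thus be read as tested, with the limit that the members were chosen with earlier results of these data known. Its bright probe set 1448939_at had 7.57, 7.33 and 7.33 in homozygous against 7.42, 7.38 and 7.03 in wild-type E17R2 arrays. The difference was 0.13 ± 0.14 (SE) with a limma adjusted p of 0.942, and the groups overlapped. The dim probe set 1445861_at had 3.62, 3.42 and 3.40 in homozygous against 3.93, 4.04 and 3.84 in wild-type arrays. The groups did not overlap, with a difference of -0.46 ± 0.11 (SE) and an unadjusted p of 0.00326, but the limma adjusted p was 0.930, so it did not pass over all probe sets.

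The Usp25 probe sets thus had opposite signs in the E17R2 arrays. Their span was 0.59, and 1.92% of 4695 genes with 2 probe sets had a span at least as large. In the pair both were lower in the homozygous array, by 0.46 for 1448939_at (-0.46) and by 1.19 for 1445861_at (-1.19). The bright probe set differed between the title series with an unadjusted p of 0.0407 and a limma adjusted p of 0.392.

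On a single array, Usp25 probe set 1445861_at minus 1448939_at was -3.95, -3.91 and -3.93 in the E17R2 homozygous arrays, against -3.49, -3.34 and -3.20 in wild-type. The homozygous arrays were nearly identical in this measure. The pair had -3.59 in the homozygous and -2.86 in the wild-type array. The R2NB arrays had -4.19, -2.90 and -2.82, so replicate 3 lay below the homozygous array and replicates 4 and 5 lay close to the wild-type array. The corresponding Nrip1 measure, 1454295_at minus 1434384_at, was -4.39, -4.14 and -4.40 in homozygous against -3.29, -3.27 and -3.75 in wild-type E17R2 arrays. It was -3.56 in the homozygous and -3.57 in the wild-type array of the pair, and -4.14, -3.01 and -3.29 in the R2NB arrays.

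**Figure D2:**
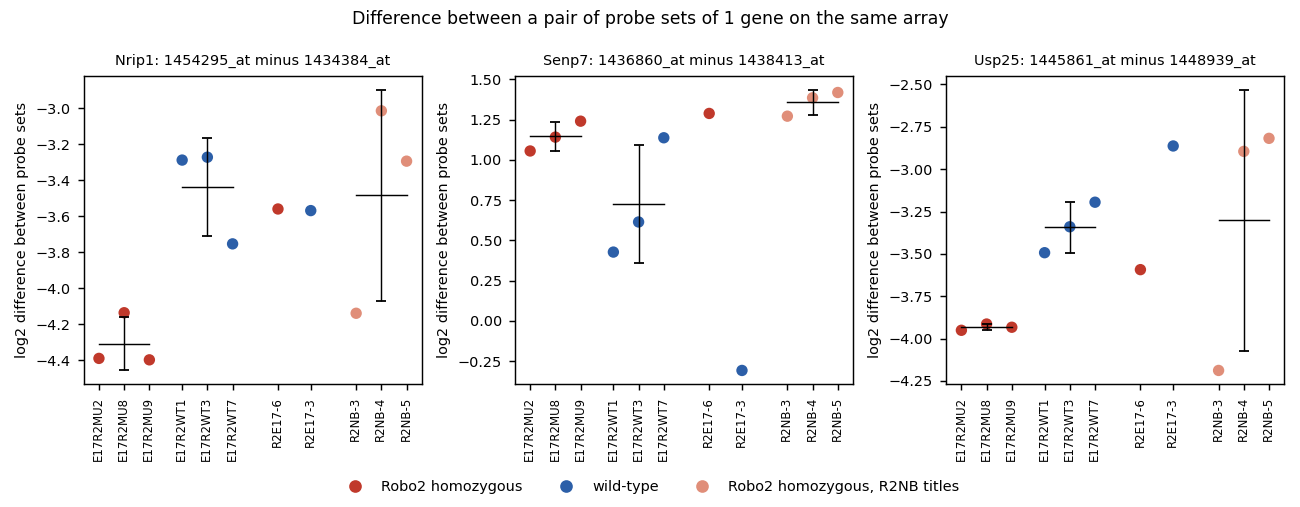
Log2 difference (vertical axes) between a pair of probe sets of Nrip1, Senp7 and Usp25 on the same array, for 11 arrays (horizontal axes); points are arrays, and the black lines and bars are the mean and SD of the groups with 3 arrays. For Usp25 the E17R2 homozygous arrays lie at -3.95 to -3.91 and the wild-type arrays at -3.49 to -3.20, and the R2NB arrays are split.

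Chodl encodes chondrolectin, a C-type lectin domain protein of the membrane, and was read by 1 probe set. It had 4.03, 3.91 and 6.07 in the E17R2 homozygous arrays, against 3.05, 3.56 and 3.78 in wild-type. The groups did not overlap, yet the size of the difference came from 1 array. It was 1.21 ± 0.55 (SE) on the log2 scale with all arrays and 0.51 without homozygous replicate 9. Skeletal muscle markers summed to 1979, 222 and 9151 intensity units in the homozygous arrays in the same order, against 536, 527 and 6564 in wild-type, and wild-type replicate 7 had the highest Chodl value of its group. Smooth muscle markers summed to 4562, 5300 and 41210 in the homozygous arrays. The part of either list in the Chodl value was not tested. The pair read 4.49 in the homozygous and 4.18 in the wild-type array, and the R2NB arrays 4.26, 4.44 and 4.51.

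N6amt1 encodes a methyltransferase that acts with Trmt112 and modifies translation release factors. Its bright probe set 1453821_at had 7.60, 7.28 and 7.15 in homozygous against 7.66, 7.86 and 7.40 in wild-type E17R2 arrays, overlapping, with a difference of -0.30 ± 0.16 (SE). In the pair it read 8.70 in the homozygous and 9.09 in the wild-type array. The dim probe set 1430380_at differed by 0.01 ± 0.15 (SE) in the E17R2 arrays, where its sign depended on the array left out, and by -0.82 in the pair.

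Map3k7cl, named for its likeness to the C-terminal part of the kinase Map3k7, lies 35 places distal to Robo2 and was read by 1 dim probe set. It had 3.65, 4.15 and 3.92 in the E17R2 homozygous arrays, against 3.53, 2.89 and 3.14 in wild-type, with no overlap and a difference of 0.72 ± 0.19 (SE). In the pair it read 7.12 in the homozygous and 5.26 in the wild-type array, a difference of 1.86 and the largest of any member probe set. The R2NB arrays read 7.04, 5.11 and 5.27. Replicate 3 thus lay beside the homozygous array of the pair, and replicates 4 and 5 lay beside its wild-type array. Skeletal muscle markers summed to 8718 intensity units in the homozygous and 377 in the wild-type array of the pair, and to 239, 232 and 10130 in the R2NB arrays. The part of muscle in the Map3k7cl values was not tested. Over all probe sets 0.0666% had R2NB replicate 3 at least 1.5 above both other R2NB arrays. This count was made after the Map3k7cl values had been seen, so nothing is read from it.

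Robo2 itself showed a like order on the R2NB arrays. Its 1 probe set, 1458229_at, read 2.03, 2.37 and 2.33 in homozygous against 3.13, 3.68 and 3.16 in wild-type E17R2 arrays. The pair had 3.37 in the homozygous and 3.96 in the wild-type array, and the R2NB arrays had 3.28, 3.86 and 3.99. Replicate 3 was again on the homozygous side and replicates 4 and 5 on the wild-type side, although all 3 are labelled homozygous. Replicate 3 was also at least 0.5 below both other R2NB arrays, as for 6.43% of all probe sets. Senp7 1436860_at (8.72, 8.64 and 8.63) and Pcnp 1452735_at (10.28, 9.99 and 10.09) had all 3 on the homozygous side. Klhl24 1438519_at read 3.94, 5.19 and 5.18 there, with 4.58 in the homozygous and 4.57 in the wild-type array of the pair. What separates the R2NB arrays was not tested. The Robo2 values are dim, at percentiles of 3.37 to 38.1, and the annotation used here does not place the probes within Robo2.

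Among the 24 member probe sets, 5 had R2NB replicate 3 at least 0.5 below both other R2NB arrays, against 6.43% of all probe sets. They were 1458469_at of Cblb (5.83, against 7.08 and 7.55), 1443086_at of Alcam (5.16, against 6.15 and 6.64), 1454295_at of Nrip1, 1445861_at of Usp25 and 1430380_at of N6amt1 (3.70, against 4.71 and 4.94). Each is the dimmest or one of the dimmer probe sets of its gene. Of the 5 member probe sets under the 40th percentile, 2 did so, against 4.95% of all such probe sets. These counts were made after the values had been seen. The Gapdh control's 3' end exceeded its 5' end, a measure of RNA integrity, by 0.033, 0.18 and 0.22 log2 units in R2NB replicates 3, 4 and 5, and the ends of Actb differed by 0.54, 0.72 and 0.75. The R2E17 wild-type array, with 0.70 and 1.12, also had the highest value of the R2E17 and R2NB arrays for these Cblb, Usp25 and N6amt1 probe sets, while R2NB arrays were higher for those of Alcam and Nrip1. The part of RNA integrity in these values was not tested.

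In the genotype contrast that served to pick most of them, 6 of the 24 member probe sets had an unadjusted p under 0.05 in the E17R2 arrays, against 5.01% of all probe sets, with 3 higher (background 2.25%) and 3 lower (background 2.76%). The groups did not overlap for 7 of the 24 (background 10.6%), with 5 higher (4.68%) and 2 lower (5.87%). Among the 19 brighter member probe sets, those above the 40th percentile of the mean, 4 did not overlap (11.9%). In the R2E17 pair 8 of 24 differed by 0.5 or more (background 17.1%), with 4 higher (8.64%) and 4 lower (8.47%). Both at once and in the same direction held for Senp7 1436860_at, Tmem45a, Usp25 1445861_at and Map3k7cl, against 0.786% of all probe sets. Since the members were picked from this contrast, nothing is read from these counts. The difference between the title series passed an adjusted p of 0.05 in limma for 0 of the 24 and for 0.0422% of all probe sets, and at an unadjusted p under 0.05 for 2 of the 24, against 11.9%.

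**Figure D3:**
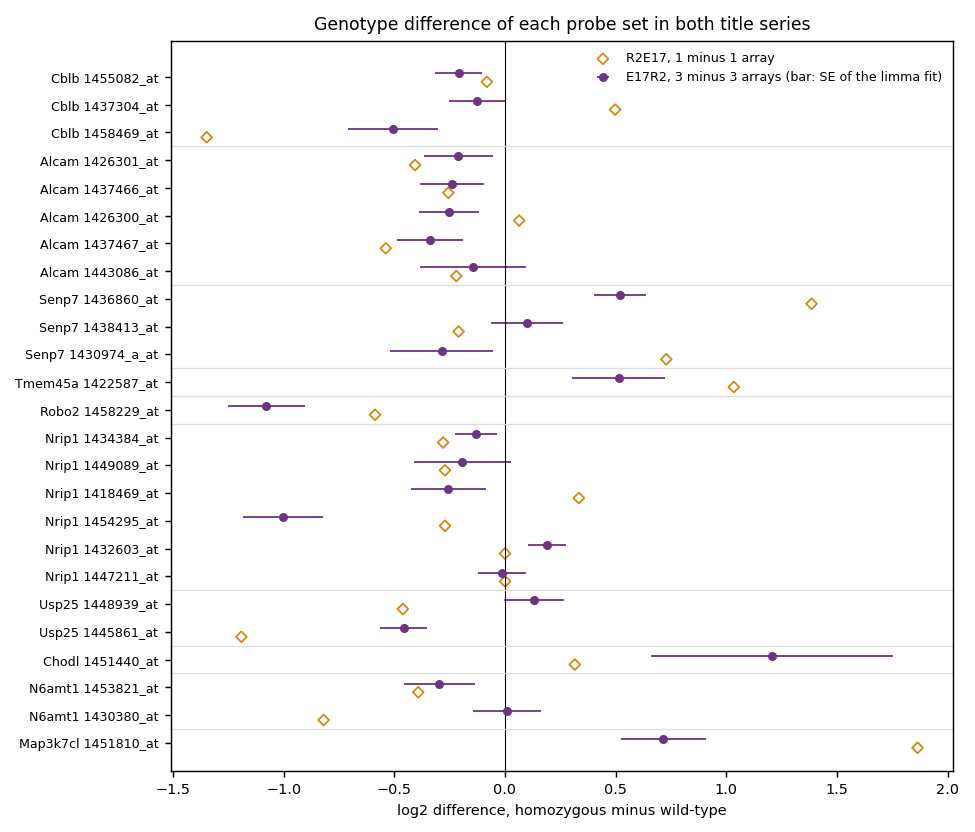
Log2 difference, homozygous minus wild-type (horizontal axis), of each member probe set and of Robo2 (vertical axis, in chromosome order), with E17R2 values as dots with the SE of the limma fit and the R2E17 pair as diamonds without error. Probe sets of Senp7, Nrip1 and Usp25 spread over 0.80, 1.19 and 0.59 log2 units in the E17R2 arrays, and those of Alcam over 0.20.

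Of the 6 members with several probe sets, Senp7, Nrip1 and Usp25 had 1 probe set at an unadjusted p under 0.05 and another of the opposite sign. Among all 9010 genes with several probe sets, 5.14% did. A probe set with an unadjusted p under 0.05 was present in 4 of the 6 members, and in 1061 of the 9010 genes (11.8%), of which 463 also had one of the opposite sign. Picking genes for a small p raises this count, so nothing is read from it. With only brighter probe sets, 1 of 4 such members did (Senp7), against 2.72% of all such genes. For Usp25 the probe set with the small p was dim, and for Nrip1 the one of opposite sign was. For Senp7 the probe set with the small p was the brightest of the gene.

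The genes around Robo2 other than the members were counted in the same way. Of the 208 probe sets of the 50 measured genes on each side of Robo2, 9.62% had an unadjusted p under 0.05 in the E17R2 arrays, with 9 higher and 11 lower. Without the members it was 14 of 184 (7.61%), against 5.01% of all probe sets. Outside that window the rest of chromosome 16 had 4.22%. Over the whole chromosome it was 5.20%, the 9th highest share among 20 chromosomes. The window's share with the members was 5.29% without wild-type replicate 1 (3.39% of all probe sets) and 5.77% without homozygous replicate 9 (4.27%). It was 13.5% without wild-type replicate 7 (7.92%) and 12.2% with dim probe sets left out (5.58%). Without the members, and with the R2E17 pair added under a title series term, it was 2.72% (4.36% of all probe sets). Under every other setting the share without the members was above that of all probe sets. The margin was small without homozygous replicate 9 (4.35% against 4.27%).

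**Figure D4:**
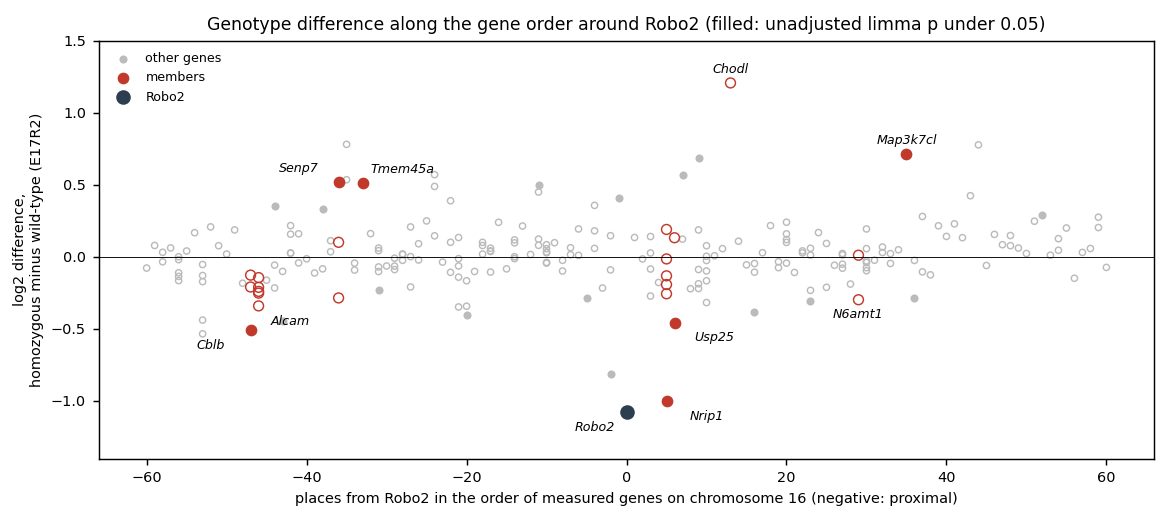
Log2 difference, homozygous minus wild-type in the E17R2 arrays (vertical axis), of every probe set within 60 places of Robo2 in the order of measured genes on chromosome 16 (horizontal axis); filled points have an unadjusted limma p under 0.05. Members lie on both sides of 0, from -1.0 for Nrip1 to 1.21 for Chodl, and the probe sets of Nrip1, Senp7, Usp25 and N6amt1 lie on both sides of 0.

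The genes nearest to Robo2 did not share a direction. Robo1, the paralogous receptor gene 2 places proximal, had 7.16, 6.67 and 6.42 in homozygous against 8.0, 7.85 and 6.84 in wild-type arrays at probe set 1427231_at. The groups overlapped, with a log2 difference of -0.81 ± 0.32 (SE) and a limma adjusted p of 0.930. The 6 arrays stood in the order of the adrenal marker sums given with Cblb, whose part in this value was not tested. Its other probe sets differed by -0.09 and 0.15, and in the pair 1427231_at was higher in the homozygous array by 0.26. The adjoining transcript 4930500H12Rik differed by 0.41 ± 0.14 (SE) and Gm36457 by -0.28 ± 0.12. The probe sets of Vgll3, Gbe1, Lipi, Rbm11, Hspa13 and Samsn1 had unadjusted p values from 0.0647 to 0.926. Outside the members and Robo2, the smallest p values on the chromosome belonged to the phospholipase gene Pla1a (-0.85 ± 0.16, SE), A930007A09Rik (0.46 ± 0.09), Tmem114 (0.52 ± 0.11), the virus receptor and junction gene Cxadr (0.69 ± 0.15) and Klhl24 (-0.43 ± 0.11). The limma adjusted p was 0.930 for each of them, as for Senp7, Nrip1 and Map3k7cl. Only Cxadr lay within 50 places of Robo2, and it differed by 0.04 in the pair.

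Relatives and partners of the members, mostly on other chromosomes, were listed for comparison. Of 36 such genes 34 had a probe set. Of their 82 probe sets 0 passed an adjusted p of 0.05 in limma, and 3 (3.66%, against 5.01% of all) had an unadjusted p under 0.05, all higher. They were the adhesion gene Cadm3 (0.38 ± 0.11, SE), a relative of Cadm2, and the estrogen receptor gene Esr1 (0.96 ± 0.34 and 0.71 ± 0.30), whose product binds Nrip1. Next came Sh3kbp1, an adaptor for Cbl proteins (0.26 ± 0.12 at 1456261_at), and Usp28, the closest relative of Usp25 (0.32 ± 0.15). Other Sh3kbp1 probe sets differed by 0.20, 0.01 and -0.26. Another Esr1 probe set, 1421244_at, differed by -0.07 ± 0.12. The Esr1 probe set with the smallest p, 1460591_at, overlapped between the E17R2 groups and differed by -0.14 in the pair. The other SUMO proteases on chromosome 16, Senp2 and Senp5, differed by -0.08 to 0.16. The median difference of the list was -0.06, against -0.0041 over all probe sets.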

How the data were processed

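Total RNA of embryonic day 17 kidneys was labelled as biotinylated cRNA and hybridised to Affymetrix arrays, per the labels' protocols. Per the submitters' processing notes RMA was used, and the deposited values are in intensity units. No software version was recorded in these notes. The values are linear, and log2 was taken with no pseudocount. The E17R2 arrays and the R2E17 and R2NB arrays had been scaled apart.

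Without the 64 control probe sets, 34945 of the rest had 1 gene symbol, 932 several and 9160 none here. Names, chromosomes and gene order came from a RefSeq table (GRCm38.p6), which held 34741 of them.

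The 2-sided moderated test of limma 3.58.1, under R 4.3.3, was run on all probe sets with Benjamini-Hochberg adjustment. The genotype fit used the 6 E17R2 arrays. The contrast between title series and R2NB minus R2E17 homozygous used all 11 arrays with a mean per group, where single arrays are assumed to vary like the rest. The fit was tested on simulated data with log2 differences larger than those of any member. That test does not show how often differences of the members' sizes would be found. A place is a step in the order of measured genes.

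The members, gene lists and naming rules were chosen with earlier results of these data known. The rule named the members, Robo2, the 5 measured genes on each side of it, the 5 other chromosome 16 genes with the smallest p, and listed relatives with the 4 smallest p. The number of arrays limits the precision.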

Additional observations from a re-analysis of the deposited data

How the results depend on the processing

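The alternatives were the fit over all 11 arrays, the 8 E17R2 and R2E17 arrays with title series as a term, dim probe sets left out, repeated quantile normalization, trend and robust settings, 1 probe set per gene, and each array left out. Over 279 recomputed genotype differences of the 24 member probe sets and Robo2, 11 changed sign, in 5 probe sets with main values near 0. Of the tested Usp25 probe sets, 1448939_at turned to -0.016 in the 8-array fit. Counts of E17R2 probe sets with an adjusted p under 0.05 ran from 0 to 3 as single arrays were dropped (the 3 without wild-type replicate 7), and with an unadjusted p under 0.05 from 1526 to 3567. The second count was 1017 with 1 probe set per gene, where fewer were tested. In the window around Robo2 the count was 20, with 13 in the 8-array fit, 10 with 1 probe set per gene and 11 to 28 with 1 array left out. Without the members it was 14, with 7 to 19 when 1 array was left out, 5 in the 8-array fit and 7 with 1 probe set per gene. Members with 1 probe set at an unadjusted limma p under 0.05 and another of the opposite sign numbered 3, and 1 with dim probe sets left out. The contrast between title series called 19 probe sets, and 4 to 6 with 1 array left out. R2NB minus R2E17 homozygous called 6, 0 with only those arrays, and 4 to 102 with 1 R2NB array left out, the 102 without replicate 3. Its count at an unadjusted p under 0.05 was 1413, with 859 without dim probe sets, 3469 with only those arrays and 971 to 4459 with 1 R2NB array left out. Where a construction does not account for it, the cause was not tested. No paired analysis was made because the sample labels used here name no litter or other pairing. The E17R2 title numbers fall into 2 runs. Replicates 1 and 3 are wild-type and 2 is homozygous, while 7 is wild-type and 8 and 9 are homozygous. Adrenal gland markers summed to 5493, 2540 and 4880 in replicates 1, 2 and 3, and to 1132, 1027 and 810.5 in 7, 8 and 9. Genotype is thus not balanced over these runs, and their part in the genotype differences was not tested.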

Other observations

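Of the probe sets of other genes within 50 places of Robo2, 14 had an unadjusted p under 0.05 in the E17R2 arrays, with 6 higher and 8 lower. Some are named here after their values were seen. Among the lower ones, Cpox probe set 1422492_at differed by -0.40 ± 0.12 (SE) without overlap. It read 7.80 on both arrays of the pair, where exact ties are common. Its other probe sets differed by -0.34 and -0.17. Epha3, a receptor for ephrins, had 8.29, 8.51 and 8.60 in homozygous against 8.09, 8.20 and 7.63 in wild-type arrays at probe set 1455426_at. The groups did not overlap, and the pair had 9.17 against 9.09. The other Epha3 probe sets differed by 0.08, 0.12 and 0.45 in the E17R2 arrays, with unadjusted limma p values from 0.141 to 0.600. Mir99ahg, the host transcript of a microRNA cluster, had 5.59, 5.55 and 6.04 in homozygous against 5.31, 5.31 and 4.85 in wild-type arrays, but 6.27 against 6.59 in the pair. Its R2NB values were 5.48, 6.47 and 6.51, with replicate 3 below the other two.

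Cxadr was read by 5 probe sets. Probe set 1449949_a_at had 5.68, 5.89 and 5.72 in homozygous against 4.77, 5.17 and 5.29 in wild-type E17R2 arrays, without overlap. The other 4 Cxadr probe sets differed by -0.22 to 0.19 and overlapped, among them the brightest, 1453282_at, at -0.09 ± 0.15 (SE).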
